A study of Homo sapiens with 2 samples.

Results

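The genes described here encode the kinases that halt the cell cycle when DNA is damaged or replication stalls, together with the proteins that sense the damage and switch those kinases on. They were 10 genes taken by symbol from a table of 26485 genes: ATR, ATRIP, CHEK1, CHEK2, WEE1, PKMYT1, TOPBP1, RAD17, RAD9A and HUS1. All 10 were in the table, and all 10 were among the 14324 genes measured, meaning at least 1 CPM (counts scaled to a common library size) in the higher library. RNA was sequenced from SK-LMS-1 and SK-UT-1, which are 2 established human leiomyosarcoma lines, both given the solvent DMSO, with 1 library per line. The series concerns joint inhibition of SUV39H2, a histone methyltransferase, and of poly(ADP-ribose) polymerases in uterine leiomyosarcoma, and both libraries used here are labelled with DMSO alone. Each line derives from 1 tumour, so a difference between them is a difference between 2 libraries and has no replicate check.

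When a replication fork stalls, single-stranded DNA coated by RPA recruits ATRIP and with it the kinase ATR. RAD17, at the head of a clamp loader, places a ring of RAD9A, RAD1 and HUS1 on the DNA next to it. TOPBP1 binds the ring and activates ATR, which phosphorylates CHEK1. CHEK2 is instead the main target of ATM, the kinase that answers double-strand breaks. WEE1 and PKMYT1 hold back the cyclin-dependent kinases directly by inhibitory phosphorylation, the same sites that CDC25 phosphatases clear. Inhibitors of ATR, CHEK1, WEE1 and PKMYT1 are studied as cancer drugs, since tumours under replication stress are thought to lean on this checkpoint.

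TOPBP1 and CHEK2 stood higher in SK-UT-1 and ATR higher in SK-LMS-1, and the DNA just upstream of these 3 genes is shown to place them, a choice made after their values were seen. The stretches come from RefSeq promoter windows (GRCh38.p14, which run from 250 bases before to 50 after a gene's start) and were trimmed to the longest part that no exon of the deposited table covers. All 3 genes lie on the minus strand, and the letters read 5′ to 3′ along the gene. They cover chr3:133661894-133662191 for TOPBP1, chr22:28741835-28742054 for CHEK2 and chr3:142578827-142578983 for ATR. Capitals mark letters that match an E2F motif (TTTGGCGC, TTTCCCGC, TTTCGCGC or TTTGCCGC), a CCAAT box (CCAAT) or a cell cycle homology region (CHR, TTTGAA or TTCGAA), searched on both strands.
TOPBP1: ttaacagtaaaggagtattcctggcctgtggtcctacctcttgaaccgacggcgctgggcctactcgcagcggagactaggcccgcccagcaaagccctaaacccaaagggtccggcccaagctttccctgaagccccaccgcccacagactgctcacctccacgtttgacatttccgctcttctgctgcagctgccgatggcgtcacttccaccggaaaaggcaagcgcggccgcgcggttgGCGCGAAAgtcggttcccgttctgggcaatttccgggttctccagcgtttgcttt
CHEK2: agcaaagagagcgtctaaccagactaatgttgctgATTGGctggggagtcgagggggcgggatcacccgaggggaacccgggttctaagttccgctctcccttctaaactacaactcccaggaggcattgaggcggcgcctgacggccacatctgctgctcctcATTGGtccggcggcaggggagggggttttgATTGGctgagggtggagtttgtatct
ATR: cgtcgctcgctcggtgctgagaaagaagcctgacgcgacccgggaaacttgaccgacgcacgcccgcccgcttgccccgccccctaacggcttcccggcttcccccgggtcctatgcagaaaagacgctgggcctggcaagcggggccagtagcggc
The TOPBP1 stretch held 1 E2F match, the CHEK2 stretch 3 CCAAT matches and the ATR stretch none of the 3 motifs. RefSeq windows were matched by symbol for 7 of the 10 genes (ATR, ATRIP, CHEK1, CHEK2, TOPBP1, RAD17 and RAD9A), some with several start sites, 12 windows in all. In windows of the full 300 bases, the E2F letters were found in 1 of the 12, against 3.31% of all 35116 promoter windows. CCAAT was found in 9 of the 12 windows, those of 5 genes, against 34.6% of all windows. ATRIP, RAD17 and CHEK1 have several windows each, and those of CHEK1 overlap each other. The 34.6% is a share of windows, not of genes. The CHR letters were found in 1 of the 12, in RAD17, against 16.4% of all windows. A match of letters is a description of the sequence, not a bound site.

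The libraries were close in depth, with 6906280 counts in SK-LMS-1 compared with 7635850 in SK-UT-1, and the 10 genes took 5092 and 6714 of them. The labelled cell type was checked on 10 smooth muscle genes, of which 9 were measured. Of these, 5 passed 2-fold towards SK-LMS-1 (21.9% of all measured genes did) and 3 towards SK-UT-1 (18.3%). The actin-binding gene CALD1 (749 and 343 CPM) and SMTN (216 and 109 CPM) were well expressed in both lines. MYLK, the kinase of contraction, was at 414 CPM in SK-LMS-1 compared with 9.94 in SK-UT-1, TAGLN at 61.8 and 5.34, and smooth muscle actin (ACTA2) the other way, at 10.5 and 54.0. Desmin (DES) had 1 and 26 counts, LMOD1 4 and 10, CNN1 64 and 20, and ACTG2 39 and 0. The smooth muscle myosin MYH11 had 5 and 2 counts, but it is listed on 2 sequences, so reads that fit both could have been lost. Markers of other cell types were not all at 0. Among leukocyte markers, CD68, a lysosomal protein, had 602 and 117 counts and CD14 had 1 and 9. PTPRC, listed on 2 sequences as well, had 0 counts in both libraries, which allows up to 3 counts. The 6 epithelial markers summed to 101 and 48.0 CPM, with KRT18 at 480 and 85 counts, EPCAM at 1 and 9 and CDH1 at 0 and 4. Of the 5 endothelial markers, 3 had 0 counts in SK-LMS-1 and all 5 in SK-UT-1. The part of these differences between the lines in the ratios of the 10 genes was not tested.

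Across the 10 genes, CHEK2 was the gene that differed by 2-fold or more, and it was higher in SK-UT-1. The share of all measured genes at least 2-fold higher was 18.3% in SK-UT-1 and 21.9% in SK-LMS-1, so 1 and 0 of 10 are not more than in the table at large. The median log2 ratio (SK-LMS-1 over SK-UT-1) was -0.22, beside 0.01 for all measured genes, and the ratios ran from -1.16 to 0.74. A second reading used the exact 95% interval of each ratio, which covers only counting error. By that reading 5 genes were higher in SK-UT-1 (CHEK2, RAD9A, PKMYT1, TOPBP1 and CHEK1), beside 36.3% of all measured genes. ATR and RAD17 were higher in SK-LMS-1, beside 37.9% of all measured genes, and the intervals of ATRIP, WEE1 and HUS1 included equality. With library totals or the upper quartile as the scaling, the intervals of ATRIP and WEE1 also lay wholly on the SK-UT-1 side. Both scalings move the ratios of all genes that way. Differences within 2-fold are given below as values of these 2 libraries.

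**Figure D1:**
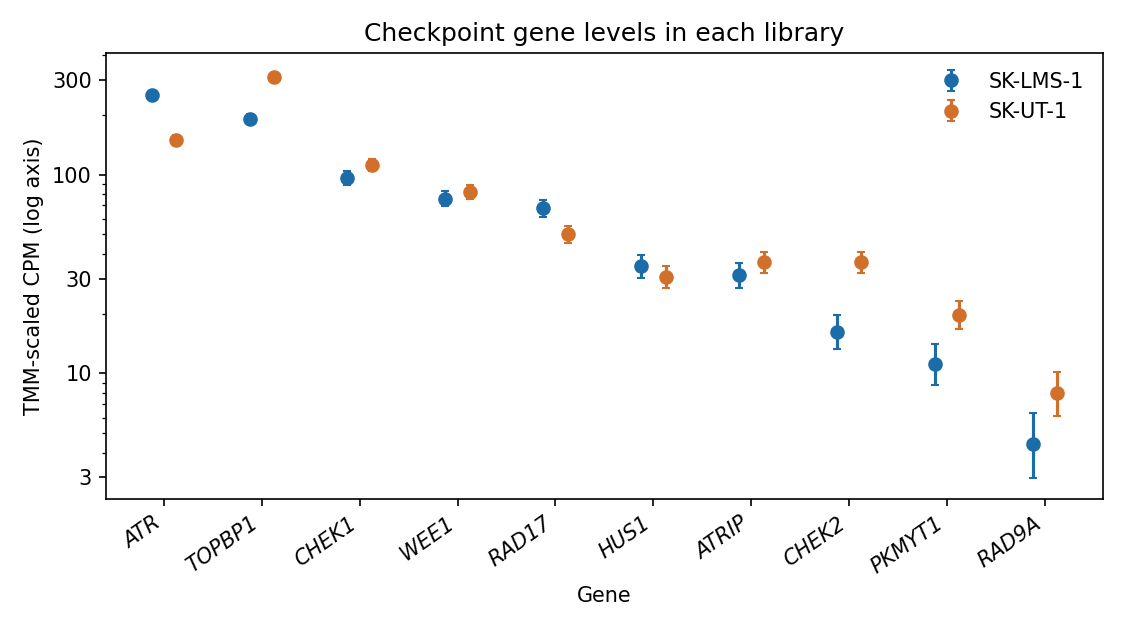
TMM-scaled CPM (log axis) of the 10 genes in SK-LMS-1 (blue) and SK-UT-1 (orange). Points are the single libraries and bars exact 95% Poisson intervals (counting error only). ATR stood higher in SK-LMS-1 (250.4 against 149 CPM), and TOPBP1 (190 against 310.5 CPM) and CHEK2 (16.2 against 36.2 CPM) stood higher in SK-UT-1.

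ATR, the kinase that starts the replication checkpoint, was counted 1641 times in SK-LMS-1 compared with 1203 times in SK-UT-1, or 250.4 and 149 CPM. It was 1.68-fold higher in SK-LMS-1 (interval 1.55 to 1.81), the highest ratio in that direction among the 10, and 27.0% of measured genes lay at least as far that way. The gene spans chromosome 3, 142449235 to 142578826, on the minus strand (hg38). ATRIP, the partner that carries ATR to RPA-coated DNA, had 204 and 291 counts, or 31.1 and 36.2 CPM. Its level was 1.16-fold higher in SK-UT-1, with an interval (0.968 to 1.396) that includes equality. The balance of this pair is given further on.

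ATRIP is on chromosome 3 from 48446710 to 48465655, plus strand, and shares 136 bases (4.35% of its exons) with TREX1, an exonuclease gene on the same strand. A fragment in that stretch was counted for both, so ATRIP is uncertain to that extent. TREX1 itself had only 27 and 56 counts. With all of these taken off ATRIP, its log2 ratio was -0.11 in place of -0.22.

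TOPBP1, the scaffold that activates ATR, went the other way from ATR. It had 1242 counts in SK-LMS-1 compared with 2499 in SK-UT-1, or 190 and 310.5 CPM. It was 1.64-fold higher in SK-UT-1 (interval 1.53 to 1.75) and had the highest level per exon length of the 10 in both libraries. Per length (RPKM, the CPM divided by exon length in kilobases), it stood at 35.5 in SK-LMS-1 compared with 58.1 in SK-UT-1, the latter above 93.1% of measured genes. TOPBP1 is on chromosome 3 from 133600605 to 133661893, minus strand, the chromosome that also holds ATR, whose ratio had the opposite sign.

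RAD17, the clamp loader subunit that recognises the damaged site, had 443 counts in SK-LMS-1 compared with 403 in SK-UT-1. Its scaled level was 67.6 CPM and 50.1 CPM, 1.35-fold higher in SK-LMS-1 (interval 1.18 to 1.55). The gene is on chromosome 5 from 69369297 to 69414801, plus strand, and is listed in the table on 1 alternate sequence as well. Reads that fit both copies, or either of 2 annotated pseudogenes, could have been lost in counting, so RAD17 is uncertain. The table's exon length of 7730 bases counts both copies, and the exons on chromosome 5 alone come to 3864 bases. Its level per length was 8.75 RPKM in SK-LMS-1 compared with 6.48 in SK-UT-1 with the table's length, and 17.5 and 13.0 with the chromosome 5 length, an alternative chosen after seeing the data.

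RAD9A and HUS1 encode 2 of the 3 parts of the clamp. RAD9A was the lowest of the 10, with 29 counts in SK-LMS-1 compared with 64 in SK-UT-1, or 4.43 and 7.95 CPM. It was 1.80-fold higher in SK-UT-1, and with so few counts the interval ran from 1.14 to 2.89. HUS1 had 227 and 245 counts, 34.6 and 30.4 CPM, and its ratio of 1.14 in favour of SK-LMS-1 was not distinguishable from equality (0.946 to 1.37). RAD1, the remaining part of the ring and not one of the 10, stood at 66.7 and 64.5 CPM, with an interval of 0.909 to 1.18 around a ratio of 1.03. Per exon length RAD1 was at 14.2 RPKM in SK-LMS-1 compared with 13.8 in SK-UT-1, HUS1 at 11.3 and 9.90, and RAD9A at 1.91 and 3.44. The transcript of RAD9A was thus the scarcest of the ring in both libraries. RAD9A is on chromosome 11 from 67391952 to 67398412, plus strand, and HUS1 on chromosome 7 from 47963288 to 47979625, minus strand.

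CHEK1, the effector kinase of ATR, had 631 counts in SK-LMS-1 compared with 900 in SK-UT-1. Its level was 96.3 and 112 CPM, 1.16-fold higher in SK-UT-1 (interval 1.05 to 1.29). CHEK2, the effector of ATM, had 106 and 291 counts, or 16.2 and 36.2 CPM, and was 2.23-fold higher in SK-UT-1 (interval 1.78 to 2.82). Its Poisson intervals did not overlap (13.2 to 19.6 and 32.1 to 40.6 CPM), yet the lower bound of the ratio was under 2-fold, and 15.7% of measured genes lay at least as far in that direction. Per length, CHEK2 ranked above 50.3% of measured genes in SK-LMS-1 and above 72.6% in SK-UT-1, and CHEK1 above 74.0% and 78.8%.

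CHEK2 is on chromosome 22 from 28687743 to 28741834, minus strand, and CHEK1 on chromosome 11 from 125625136 to 125676255, plus strand. The GENCODE release 29 annotation names 4 CHEK2 pseudogenes, copies of part of the gene on other chromosomes or elsewhere on chromosome 22. Fragments that fit a copy as well as CHEK2 may have been left out, so its level is uncertain. The 1 copy listed in the table, CHEK2P2, had 0 counts in both libraries.

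WEE1, which phosphorylates CDK1 and CDK2 in the nucleus, was nearly level between the lines. It had 496 counts in SK-LMS-1 compared with 659 in SK-UT-1, or 75.7 and 81.9 CPM, with an interval of 0.961 to 1.22 around a ratio of 1.08 in favour of SK-UT-1. PKMYT1, its membrane-bound relative that acts on CDK1, was scarcer, with 73 and 159 counts, or 11.1 and 19.8 CPM. It was 1.77-fold higher in SK-UT-1 (interval 1.34 to 2.37). WEE1 is on chromosome 11 from 9573681 to 9589766, plus strand, and PKMYT1 on chromosome 16 from 2972791 to 2980539, minus strand. Exons of PKMYT1 overlap those of PAQR4 on the opposite strand over 17.5% of their length, which the strand setting of the counting is meant to keep apart. The same holds for RAD9A with PPP1CA (10.03% of its exons) and for RAD17 with AK6 and TAF9 (5.30% each).

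The order of the 10 genes by level per exon length was similar in the libraries at its ends and changed in the middle. In SK-LMS-1 it ran TOPBP1, ATR, CHEK1, WEE1, HUS1, ATRIP, RAD17, CHEK2, PKMYT1 and RAD9A, from 35.5 to 1.91 RPKM. There CHEK1 and WEE1 could not be separated (the interval of their ratio includes 1), nor could HUS1 and ATRIP, ATRIP and RAD17, or RAD17 and CHEK2. In SK-UT-1 the order was TOPBP1, CHEK1, WEE1, ATR, CHEK2, ATRIP, HUS1, PKMYT1, RAD17 and RAD9A, from 58.1 to 3.44 RPKM. ATR and CHEK2 (18.1 and 17.2 RPKM) could not be separated there, nor ATRIP and HUS1, or HUS1 and PKMYT1. ATR thus came directly after TOPBP1 in SK-LMS-1, at 30.4 RPKM, and after CHEK1 and WEE1 as well in SK-UT-1. RAD17 moves up in both orders with its chromosome 5 length, to 17.5 RPKM in SK-LMS-1 (above HUS1, ATRIP and CHEK2) and 13.0 in SK-UT-1. That RAD17 could not be separated from ATRIP or CHEK2 in SK-LMS-1 was read with the table's length.

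Ratios between genes within a library do not depend on scaling between libraries, so 5 pairs of partners were compared. ATR per length was 3.05 times ATRIP in SK-LMS-1 (2.63 to 3.54) and 1.57 times in SK-UT-1 (1.38 to 1.79), a change of 1.95-fold (1.60 to 2.37). ATRIP was counted here with any fragments it shares with TREX1, and the pair was not recomputed without them. CHEK1 was 2.55 times CHEK2 in SK-LMS-1 (2.08 to 3.17) and 1.33 times in SK-UT-1 (1.16 to 1.52), a change of 1.92-fold (1.499 to 2.48). WEE1 was 3.75 times PKMYT1 in SK-LMS-1 and 2.29 times in SK-UT-1, a change of 1.64-fold (1.20 to 2.25). In each of these 3 pairs the more abundant gene led by more in SK-LMS-1.

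RAD9A was 0.170 times HUS1 in SK-LMS-1 and 0.347 times in SK-UT-1, 2.04-fold more in SK-UT-1 (1.25 to 3.41). HUS1, the more abundant gene of this pair, thus also led by more in SK-LMS-1. CHEK1 and WEE1 kept nearly the same balance, 1.05 in SK-LMS-1 compared with 1.13 in SK-UT-1, and the interval of the change (0.917 to 1.26) includes no change. The pair ATR and TOPBP1, chosen after its values were seen and so given only as a description, stood at 0.856 in SK-LMS-1 compared with 0.312 in SK-UT-1, a change of 2.74-fold (2.48 to 3.04). The intervals cover counting error only. No background over pairs of other measured genes was computed, so these changes are not shown to be larger than those of other pairs. The log2 ratios of all measured genes had an interquartile range of -0.69 to 0.85.

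**Figure D2:**
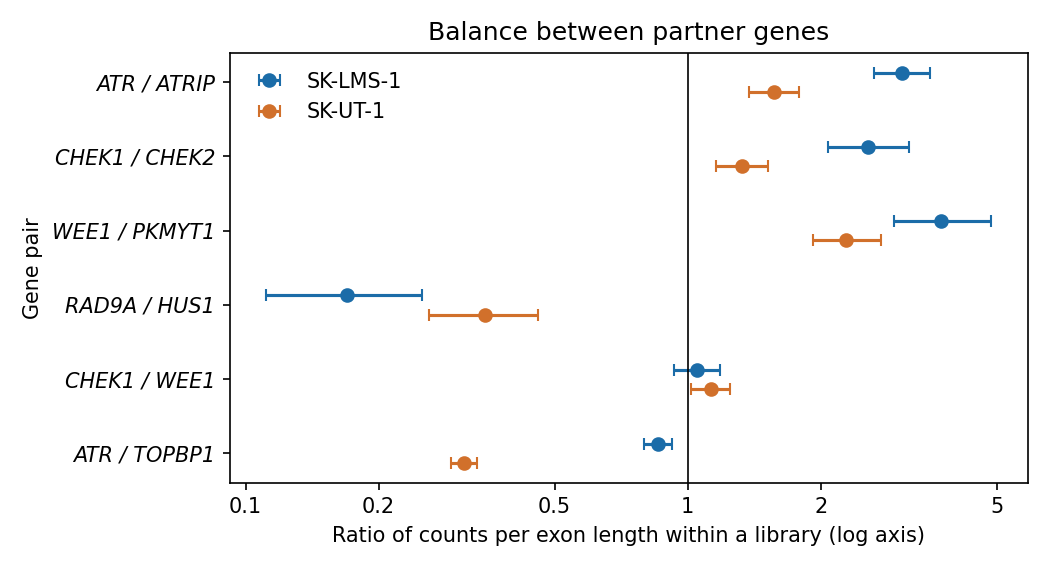
Ratio of counts per exon length between 2 genes of the same library (log axis), for SK-LMS-1 (blue) and SK-UT-1 (orange), with exact 95% intervals. The intervals of the lines are apart for ATR over ATRIP (3.05 and 1.57) and CHEK1 over CHEK2 (2.55 and 1.33), and they overlap for CHEK1 over WEE1 (1.05 and 1.13).

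Genes near each of the 10 on its chromosome were read beside it, taking measured genes whose midpoint lay within 2 Mb. PKMYT1, at a log2 ratio of -0.83, lay among 105 genes of which 91 were higher in SK-UT-1, with a median of -0.76. CHEK2, at -1.16, lay among 36 genes with a median of -0.47, of which 24 were higher in SK-UT-1. ATRIP, at -0.22, had 85 neighbours with a median of -0.24. In these 3 regions the neighbours pointed the same way as the gene, and their part in its ratio was not tested.

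For 4 genes the neighbours within 2 Mb had a median of the opposite sign. CHEK1, at -0.22, lay among 29 genes of which 24 were higher in SK-LMS-1, and their median was 0.55. TOPBP1, at -0.71, had 14 neighbours with a median of 0.27, and that median was -0.07 in windows of 1 Mb and of 5 Mb. RAD17, at 0.43, had 22 neighbours with a median of -0.38. WEE1, at -0.11, had 34 neighbours with a median of 0.21.

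ATR, at 0.74, had 16 neighbours of which 12 were higher in SK-LMS-1, and their median was 0.28. That median was 0.39 in a window of 1 Mb and 0.07 in a window of 5 Mb. RAD9A, at -0.85, had 90 neighbours with a median of -0.19. HUS1 had only 2 measured neighbours, too few to describe a region. Here too the part of the region was not tested.

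**Figure D3:**
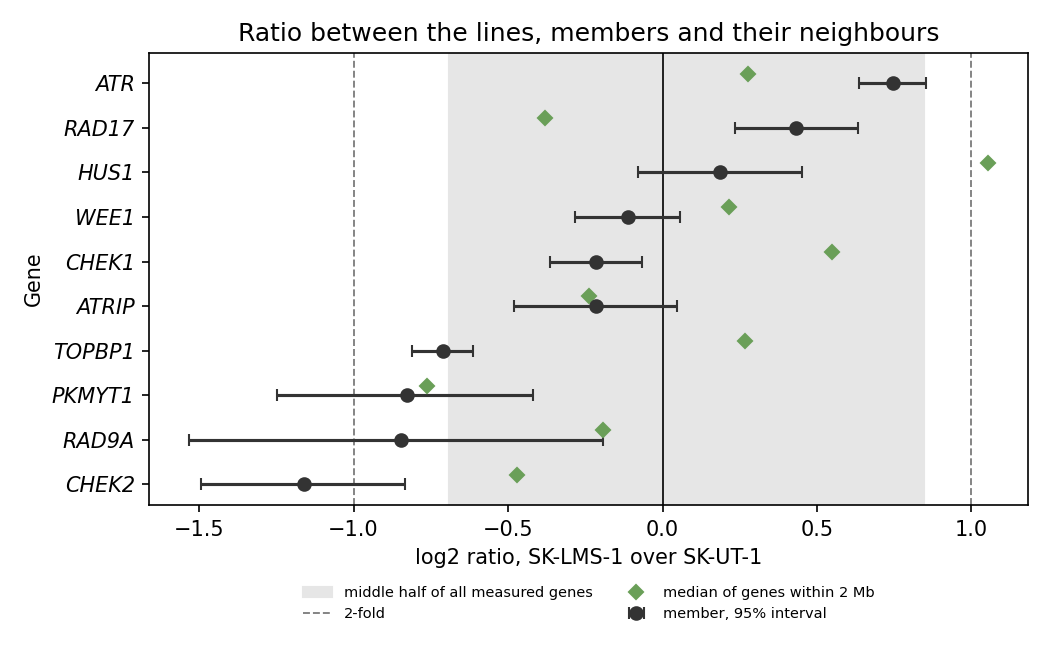
Log2 ratio of SK-LMS-1 over SK-UT-1 for the 10 genes (black points, exact 95% intervals for counting error) and the median of measured genes within 2 Mb (green diamonds). The grey band is the interquartile range of all measured genes (-0.69 to 0.85) and dashed lines mark 2-fold. CHEK2 (-1.16) lies beyond the 2-fold line on the SK-UT-1 side, and the diamond of HUS1 rests on 2 genes.

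The genes around these 10 in the pathway were read through 6 lists, 52 measured genes in all, of which 2 were 2-fold or more above the other line in SK-LMS-1 compared with 7 in SK-UT-1, with a median of -0.32. Both counts are below the shares of all measured genes past 2-fold, 21.9% (SK-LMS-1) and 18.3% (SK-UT-1), and these shares are the background of each list count that follows. Among the clamp, the clamp loader and RPA, 1 of 10 measured genes was 2-fold or more above the other line in SK-LMS-1 compared with 0 in SK-UT-1, with a median of -0.28. That gene was RAD9B, the paralogue of RAD9A, at only 19 and 9 counts. HUS1B, the paralogue of HUS1, had 0 counts in both libraries, which allows up to 3 counts. The loader subunits RFC2, RFC3, RFC4 and RFC5 all stood higher in SK-UT-1 within 2-fold (1.20-fold to 1.70-fold), unlike RAD17, which shares the complex with them. RPA3, the smallest RPA subunit, was 1.96-fold higher in SK-LMS-1 (interval 1.60 to 2.40), while RPA1 and RPA2 were 1.35-fold and 1.19-fold higher in SK-UT-1.

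In the list of the ATR activator and fork mediators, 0 of 5 genes passed 2-fold, with a median of -0.33. CLSPN, the adaptor that presents CHEK1 to ATR, was named after its values were seen. Its level of 434 CPM in SK-UT-1 was 1.64-fold that of SK-LMS-1, 265 CPM (interval 1.55 to 1.74), beside the same 1.64-fold for TOPBP1. ETAA1, which activates ATR without TOPBP1, was at 81.2 and 73.8 CPM, and its interval (0.977 to 1.24) includes equality.

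In the ATM arm, 1 of 9 genes was 2-fold or more above the other line in SK-LMS-1 compared with 0 in SK-UT-1, not more than the 21.9% and 18.3% of all measured genes, and the median of 0.28 was the one list median above 0. MRE11A, the nuclease of the complex that brings ATM to broken ends, was 2.24-fold higher in SK-LMS-1 (interval 1.99 to 2.52), at 123 and 54.9 CPM. ATM itself stood at 245 and 180 CPM, 1.36-fold higher in SK-LMS-1 (interval 1.27 to 1.46), which is the direction of ATR and the opposite of its target CHEK2. Both apical kinases thus stood higher in SK-LMS-1, by less than 2-fold, and both effector kinases higher in SK-UT-1. For CHEK1 this was only 1.16-fold, and 41.2% of measured genes lay at least as far that way. This grouping was not among the planned comparisons.

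The cell cycle engine on which the checkpoint acts was read through 10 CDC25, CDK and cyclin genes. Of these, 3 were 2-fold or more above the other line in SK-UT-1 (18.3% of all measured genes were) and 0 in SK-LMS-1 (21.9%), and all 10 had ratios below 0 (49.7% of measured genes did), with a median of -0.58. CDC25A, the phosphatase that CHEK1 marks for destruction, was 3.20-fold higher in SK-UT-1 (interval 2.70 to 3.82), at 82.6 against 25.8 CPM. CDC25C, which removes the WEE1 and PKMYT1 marks at mitosis, was 2.71-fold higher (interval 2.19 to 3.37), and CCNE1, the cyclin partner of CDK2 at S phase entry, 4.39-fold (3.35 to 5.84). Of the 10 checkpoint genes, 7 had ratios below 0, PKMYT1 and CHEK2 among them, and 3 had ratios above 0. ATR (0.74) and RAD17 (0.43) had intervals wholly on the SK-LMS-1 side. WEE1, with TMM scaling, differed by less than its counting error.

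Of the 7 genes of checkpoint recovery and turnover, 2 passed 2-fold towards SK-UT-1 and 0 towards SK-LMS-1, and the list median was -0.28. PLK1, the mitotic kinase that marks WEE1 and CLSPN for degradation, was 2.41-fold higher in SK-UT-1 (interval 2.20 to 2.64). BORA, its activator with AURKA, was 2.12-fold higher (interval 1.70 to 2.66).

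General proliferation genes had ratios on the same side. All 12 of the list had ratios below 0 (49.7% of measured genes did), with a median of -0.49. TOP2A was at 704 and 1762 CPM, and MCM4 at 295 and 600.0 CPM. Of the 12, 2 passed 2-fold towards SK-UT-1, near the 18.3% of all measured genes, and 0 towards SK-LMS-1. CCNB1 is in both this list and the CDC25, CDK and cyclin list, so the lists are not fully separate. The summed level of the list was 4123 CPM in SK-LMS-1 compared with 6391 in SK-UT-1. In bulk RNA, more cycling cells and more transcript per cell cannot be told apart. Several checkpoint genes are transcribed with the cell cycle, and the part of proliferation in the ratios of CHEK1, CHEK2, PKMYT1 and TOPBP1 was not tested.

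**Figure D4:**
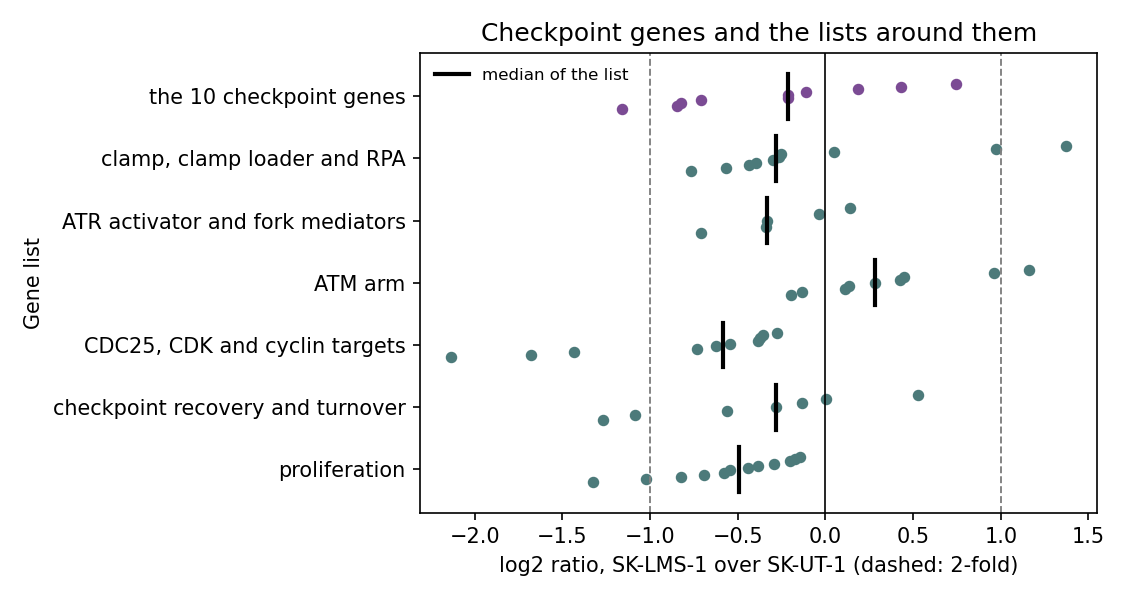
Log2 ratio of SK-LMS-1 over SK-UT-1 for every measured gene (points) of the 10 checkpoint genes and of 6 pathway lists, with the list median (black bar) and dashed lines at 2-fold. The ATM arm has its median at 0.28, above 0, while the CDC25, CDK and cyclin list has its median at -0.58 and every point below 0.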

How the data were processed

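Total RNA of the 2 lines was made into libraries with a stranded SMARTer kit, per the labels' protocols. The authors deposited raw counts per gene, made with featureCounts 2.0.1 on hg38 and a UCSC annotation, per the file headers. Exon fragments were summed by gene name with strand setting 1, and those overlapping several genes counted for each, per the file headers. No aligner is named there or in the labels. Another 2 count columns match neither sample and were left out.

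Counts were scaled with edgeR 4.0.16 TMM factors (R 4.3.3; 0.949 for SK-LMS-1, 1.05 for SK-UT-1), and counts under 3 were raised to 3 in ratios. Exact 95% intervals (Clopper-Pearson for ratios, Poisson for levels, conditional for pairs) cover counting error only, and treat amplified fragments as if independent. No test was made, since 1 library per line leaves no residual degrees of freedom. The computation was tested on simulated Poisson counts. The text names the 10 genes, genes overlapping them on their strand and, per list, up to 3 genes per direction that differ by 2-fold at 5 CPM. RAD9B, RAD1, HUS1B, the RFC and RPA genes, CLSPN, ETAA1, ATM, the genes overlapping on the opposite strand (PAQR4, PPP1CA, AK6, TAF9) and the marker genes fall outside that rule. The genes and lists were chosen with earlier results of these data known, and 2 listed symbols were matched by older names (MRE11A, H2AFX). Alternatives covered the scaling (library totals, upper quartile, DESeq2 1.42.0), thinning, filters, fold rules and window sizes.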

Additional observations from a re-analysis of the deposited data

How the results depend on the processing

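No paired analysis was possible because each line has 1 library, and no library could be left out. Against TMM scaling, library totals shifted the median log2 ratio of all measured genes from 0.01 to -0.15 and the upper quartile to -0.14. The direction of all 10 genes held under the 3 other scalings and under thinning. ATR moved beyond its interval to 0.59 (library totals) and 0.61 (upper quartile), TOPBP1 to -0.86 and -0.85, and CHEK1 to -0.37 (library totals), all by the construction of the scaling. Under library totals and the upper quartile 7 genes, not 5, had intervals wholly on the SK-UT-1 side. Both scalings move the ratios of all genes that way, and the share of all measured genes by interval was not computed under them. CHEK2 stayed the one gene past 2-fold under every scaling and filter. RAD9A and PKMYT1 came close to that cut, at -0.997 and -0.978 with library totals and at -0.979 and -0.960 with the upper quartile. A count of 1 gene past 2-fold thus depends on where the cut is set. At 1.5-fold, 1 of the 10 genes was higher in SK-LMS-1 (beside 30.8% of all measured genes) and 4 in SK-UT-1 (beside 28.3%). At 4-fold, 0 of the 10 passed in each direction, beside 11.4% of all measured genes towards SK-LMS-1 and 7.30% towards SK-UT-1. With the whole interval beyond 2-fold it was again 0 in each direction, beside 15.1% (SK-LMS-1) and 10.1% (SK-UT-1). With shares this low, 0 of 10 says little about these genes. Pathway genes higher in SK-LMS-1 numbered 4 at 1.5-fold, 0 at 4-fold, 0 with the whole interval beyond 2-fold and 1 at 5 CPM. Those higher in SK-UT-1 numbered 13 at 1.5-fold, 1 at 4-fold, 5 with the whole interval beyond 2-fold and 7 at 5 CPM. The shares of all measured genes given for the 10 genes are the background of these pathway counts too. For the 5 CPM filter, the shares past 2-fold were 19.7% (SK-LMS-1) and 14.6% (SK-UT-1). RAD17 per length was 17.5 RPKM in SK-LMS-1 compared with 13.0 in SK-UT-1 with exons on chromosome 5 only. Depth limits RAD9A and PKMYT1 most, at 29 and 73 counts in SK-LMS-1.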
